A study of Mus musculus with 2 samples.

Results

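Apolipoproteins are the protein coats of the particles that carry lipid in the blood, and the hepatocyte is the main source of most of them. Apoa1, Apoa2, Apoa4, Apoa5, Apob, Apoc1, Apoc3, Apoe and Apoh, together with Mttp, the gene of the transfer protein that loads lipid onto nascent apolipoprotein B, were chosen by name as the rows of the count tables with these symbols. They are 10 of 19465 genes. RNA was counted in liver sections on the spots of a Visium slide for formalin-fixed tissue, in which a ligated pair of probes stands for 1 transcript and is counted once by its unique molecular identifier (UMI). A spot is a small region that holds several cells, and its counts are the sum over them.

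There was 1 section of 5 µm from 1 AEG-1-WT mouse and 1 from 1 AEG-1-C75S littermate, both naïve females of 8 weeks from heterozygous parents. AEG-1, the product of Mtdh, is a membrane-anchored protein. In AEG-1-C75S mice the cysteine at which it carries a palmitoyl group was replaced by serine with CRISPR/Cas9, in the germline and therefore in every cell type. Both sections were cut from identical lobes. The level of Mtdh does not check these labels, because the edit replaces a codon and does not remove the gene. After spots with more than 50000 UMIs were removed, 2309 spots with 42246988 UMIs remained for AEG-1-WT and 2163 spots with 41674347 UMIs for AEG-1-C75S. The median spot held 16830 and 18808 UMIs. The defining hepatocyte markers that were found in the tables, Alb, Ttr, Serpina1c and Cps1, summed to 152545 and 147382 CPM, that is UMIs over all UMIs of the same spots, scaled to 1000000. Alb made up most of both sums, at 127352 and 120952 CPM, and the single markers went both ways. Their log2 ratios, AEG-1-C75S over AEG-1-WT, were -0.07 for Alb, 0.19 for Ttr, -0.44 for Serpina1c and -0.22 for Cps1. Apob and Apoa4 are also products of the intestine, and of 5 enterocyte markers Sis and Alpi had 0 UMIs in both sections, Lct 1 and 0, and Vil1 32 and 20. The remaining marker, Fabp2, which hepatocytes may also express, had 7143 and 5522 UMIs.

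In the liver, apolipoprotein A-I and A-II make up high density lipoprotein (HDL), and apolipoprotein B with the microsomal triglyceride transfer protein builds very low density lipoprotein (VLDL). Apolipoproteins C-III, A-V and C-I tune how fast triglyceride-rich particles are lipolysed and taken up, and apolipoprotein E is the ligand through which remnants are cleared. Hepatocytes differ in their work along the axis from the portal tract, where blood enters the lobule, to the central vein.

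Apoa1, Apoc3, Apoa4 and Apoa5 lie side by side on chromosome 9, in 43.3 kb of the mouse genome (build GRCm38, mm10) that hold no other annotated gene. Apoa1 runs from 46228630 to 46230469, Apoc3 from 46233050 to 46235636, Apoa4 from 46240844 to 46243458 and Apoa5 from 46268608 to 46271921. Apoc1 (chr7:19689480-19692659) and Apoe (chr7:19696244-19701310) are neighbours in a second cluster, with Apoc4 and Apoc2. Apoa2 (chr1:171221564-171226379), Apob (chr12:7977629-8016839), Apoh (chr11:108395297-108414396) and Mttp (chr3:138089855-138143418) stand outside both clusters.

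The 200 bases upstream of the start site are shown for 3 genes whose values differ most below: Apoa1 and Apoa2, with the largest differences between the sections, and Apoa4, with the steepest gradient along the lobule. They are read 5′ to 3′ on the plus strand from RefSeq (GRCm38.p6), from chr9:46228430-46228629 for Apoa1, chr1:171224854-171225053 for Apoa2 (inside the annotated span, in front of the downstream of 2 listed start sites) and chr9:46240644-46240843 for Apoa4. Capitals mark matches to 3 short motifs, chosen after the values were known and searched on both strands: a core of the HNF4 site (CAAAGNNCA), a core of the forkhead site (GTAAACA) and the TATA box (TATAAA).
Apoa1: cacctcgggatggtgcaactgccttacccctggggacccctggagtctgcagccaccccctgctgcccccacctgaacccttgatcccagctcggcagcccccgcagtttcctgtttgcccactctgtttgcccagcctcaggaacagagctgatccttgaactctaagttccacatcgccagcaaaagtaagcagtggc
Apoa2: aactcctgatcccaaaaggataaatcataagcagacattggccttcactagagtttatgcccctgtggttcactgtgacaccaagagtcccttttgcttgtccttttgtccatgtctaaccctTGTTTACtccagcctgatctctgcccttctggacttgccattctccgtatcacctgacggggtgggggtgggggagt
Apoa4: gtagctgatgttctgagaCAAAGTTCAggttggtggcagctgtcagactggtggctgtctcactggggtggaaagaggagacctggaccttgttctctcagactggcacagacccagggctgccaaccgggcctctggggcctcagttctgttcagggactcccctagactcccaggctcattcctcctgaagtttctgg
In Apoa2 the capitals are the forkhead core on the other strand, at -77 to -71 from the start. In Apoa4 they are the HNF4 core, at -182 to -174. The Apoa1 window held none of the 3 motifs, and neither did that of Mttp. The HNF4 core was also found upstream of Apob and Apoh, the forkhead core upstream of Apoh, and the TATA box upstream of Apoa5, Apob and, at 1 of its start sites and with 2 overlapping matches, Apoe. Among 32851 windows of the same length in the table, 4.36% held the HNF4 core, 2.51% the forkhead core and 9.96% the TATA box. Sequences were matched for 8 of the 10 genes, without Apoc1 and Apoc3. A match is a description of these letters, not a site in use. Only exact matches were counted, so a window without one, such as that of Apoa1, may hold sites spelled otherwise.

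The 10 genes made up 7.86% of all UMIs in AEG-1-WT against 9.38% in AEG-1-C75S. Apoa1, the main protein of HDL, accounted for most of that gain, and Apoa2, its partner on the particle, for most of the remainder. Levels were compared as CPM, so each value is a share of the library. Probe pairs differ in number and efficiency between genes, and levels are therefore compared between sections or regions for 1 gene at a time. With 1 section per genotype there was no test: intervals are 95% intervals for counting error only, and each ratio compares these libraries, not the conditions. Genotype, animal, tissue block, position on the slide and library cannot be told apart, and neither can fewer cells of a type and less RNA per cell.

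Apoa1 stood at 21341 CPM (901573 UMIs) in AEG-1-WT and at 30253 CPM (1260783 UMIs) in AEG-1-C75S. It was 1.42-fold higher in AEG-1-C75S, with a counting interval of 1.41 to 1.42, or 0.50 on the log2 scale. No other gene of the tables gained as many CPM, and 1.85% of the 6883 genes that reached 1000 UMIs in the sections together had a higher ratio. Apoa2 stood at 24381 CPM (1030026 UMIs) in AEG-1-WT and 30469 CPM (1269766 UMIs) in AEG-1-C75S, the next gain in CPM among all genes. Its ratio was 1.24969 with an interval of 1.246 to 1.253, or 0.32 on the log2 scale.

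A gene was called different between the sections when its CPM in 1 section exceeded that in the other by at least 25%, a log2 ratio of 0.3219. Of the 10 genes, Apoa1 was called higher and none was called lower. Over all genes tested, 4.65% were called higher and 8.82% lower, so a count of 1 in 10 is near the background. That split of 320 higher and 607 lower depended on the scaling: it was 452 and 437 with TMM factors and 412 and 465 with centring on the median gene. Apoa2, with a log2 ratio of 0.3216, lay just short of the line, and it lay past it under several other settings, as given at the end. The median log2 ratio of the 10 genes was 0.08, beside -0.04 over all genes tested, whose 5th and 95th percentiles were -0.41 and 0.31.

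**Figure D1:**
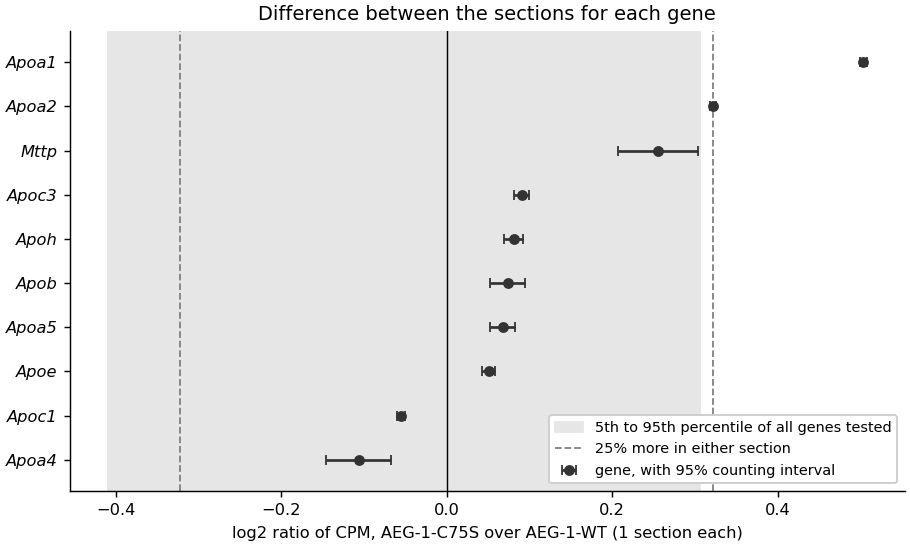
Log2 ratio of CPM, AEG-1-C75S over AEG-1-WT, for each of the 10 genes, with 95% counting intervals; the grey band spans the 5th to 95th percentile of all genes tested and dashed lines mark a 25% excess of either section. Apoa1 at 0.50 lies beyond the dashed line, Apoa2 at 0.32 sits on it, and the other genes lie between -0.11 and 0.26.

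The difference in Apoa1 ran through nearly the whole section. In single spots of AEG-1-WT the median was 21493 CPM, with 5th and 95th percentiles of 17731 and 25248. In AEG-1-C75S the median was 30644 CPM and the same percentiles were 25389 and 35206, so the central ranges of spots of the sections did not overlap. Of the AEG-1-C75S spots, 99.4% were above the AEG-1-WT median and 95.5% above its 95th percentile. For Apoa2 the same shares were 93.6% and 64.9%, from spot medians of 24664 CPM in AEG-1-WT and 30550 CPM in AEG-1-C75S. The spots thus overlapped more for Apoa2 than for Apoa1. Spots of a section share 1 animal and 1 library and are not replicates, so these shares describe the spread within the tissue.

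**Figure D2:**
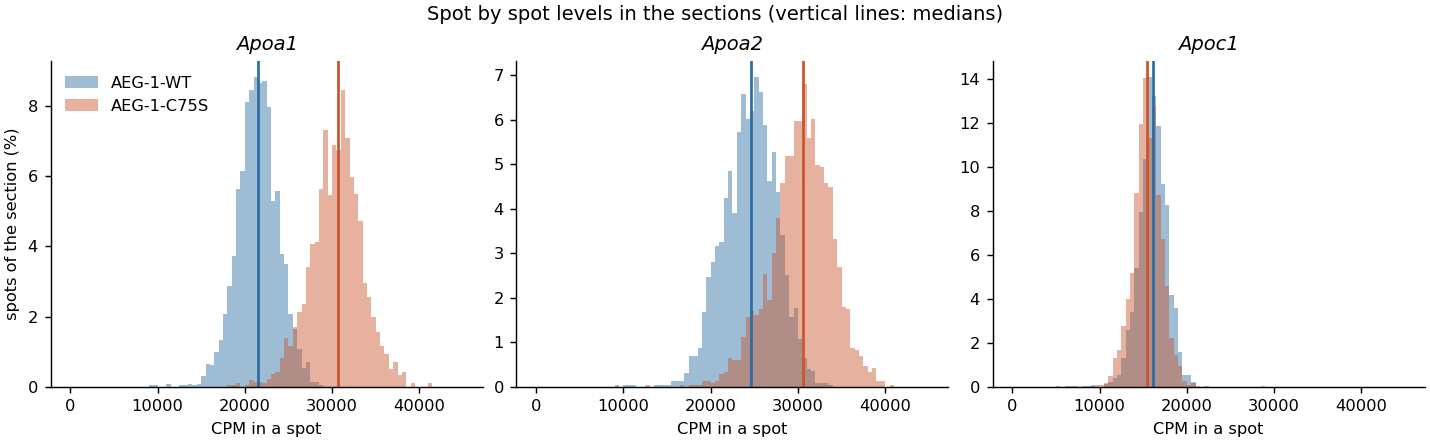
Distribution over spots of the CPM of Apoa1, Apoa2 and Apoc1, as percent of the spots of a section (blue, AEG-1-WT, 2309 spots; orange, AEG-1-C75S, 2163 spots); vertical lines are medians. The Apoa1 histograms are nearly apart (medians 21493 and 30644 CPM), those of Apoa2 overlap in part (24664 and 30550 CPM) and those of Apoc1 lie over each other (16114 and 15485 CPM).

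The neighbours of Apoa1 in the chromosome 9 cluster did not share its difference. Apoc3, whose product slows the lipolysis of triglyceride-rich particles, stood at 4846 CPM in AEG-1-WT and 5160 CPM in AEG-1-C75S, a log2 ratio of 0.09 (0.08 to 0.10). Apoa5, whose product promotes that lipolysis, stood at 1634 and 1713 CPM, a log2 ratio of 0.07 (0.05 to 0.08). Apoa4, a component of HDL and of triglyceride-rich particles, was lower in AEG-1-C75S, with 254 CPM in AEG-1-WT and 236 CPM in AEG-1-C75S and a log2 ratio of -0.11 (-0.15 to -0.07). The intervals of all 3 ended well below the 0.50 of Apoa1.

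Apoc1 and Apoe, neighbours on chromosome 7, moved little. Apoc1, whose product inhibits the uptake of remnants, stood at 16017 CPM in AEG-1-WT and 15413 CPM in AEG-1-C75S, with a log2 ratio of -0.06 (-0.06 to -0.05). Its direction was not stable, since the ratio came to 0.0009 with TMM factors. Apoe stood at 6442 and 6672 CPM, a log2 ratio of 0.05 (0.04 to 0.06). Of the 3 genes of this set with the most UMIs, Apoc1 was thus the one whose level hardly differed.

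Of the genes that build VLDL, Mttp differed more than Apob. Apob, the structural protein of the particle, stood at 860 CPM in AEG-1-WT and 905 CPM in AEG-1-C75S, a log2 ratio of 0.07 (0.05 to 0.09). Mttp stood at 153 CPM (6477 UMIs) and 183 CPM (7627 UMIs). It was 1.19-fold higher in AEG-1-C75S (interval 1.15 to 1.23), with a log2 ratio of 0.26 that 7.06% of the tested genes exceeded. Apoh, beta-2-glycoprotein I, a phospholipid-binding plasma protein, stood at 2649 and 2802 CPM, a log2 ratio of 0.08 (0.07 to 0.09).

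To place the genes in the lobule, the spots of each section were ordered by the ratio of Cyp2f2, a periportal cytochrome P450, to Cyp2e1, a pericentral one, and divided into 5 equal groups of 461 or 462 spots in AEG-1-WT and 432 or 433 in AEG-1-C75S. The first group is the most periportal and the last the most pericentral. Cyp2f2 itself was 6.61-fold higher in the first than in the last group in AEG-1-WT against 4.88-fold in AEG-1-C75S, which is what the order was made from. A gene was called zonated when 1 end of the axis exceeded the other by at least 25%, the same way in both sections.

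Apoa4 was the only one of the 10 genes that passed this line, on the periportal side. It fell at each step in AEG-1-WT, over 400, 312, 224, 199 and 140 CPM. It also fell at each step in AEG-1-C75S, over 333, 284, 226, 187 and 151 CPM. The first group was 2.86-fold above the last in AEG-1-WT, a log2 ratio of 1.52 (1.42 to 1.62), and 2.20-fold in AEG-1-C75S, a log2 ratio of 1.14 (1.04 to 1.24). Only 0.392% of the genes tested had a higher ratio in AEG-1-WT against 0.509% in AEG-1-C75S. Over all 6881 genes tested, the axis genes left out, 2.79% were called periportal and 9.56% pericentral, so the count of 1 periportal gene in 10 says little about the group, and none of the 10 was called pericentral. That background leans pericentral: the median gene had a log2 ratio of -0.13 in AEG-1-WT against -0.11 in AEG-1-C75S. Albumin alone held 12.4% of all UMIs and was 1.64-fold and 1.58-fold higher in the first group. With each ratio centred on the median gene, 339 genes were periportal and 344 pericentral in place of 192 and 658, and Apoa4 remained called.

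Apoc3 leaned in the same direction as Apoa4, by much less and short of the line. Its level went from 5290 CPM in the first group to 4449 CPM in the last in AEG-1-WT and from 5440 to 4721 CPM in AEG-1-C75S, with a lower value at each step in both. The log2 ratios of first over last were 0.25 (0.23 to 0.27) and 0.20 (0.18 to 0.22). Centred on the median gene, the AEG-1-WT ratio was 0.38, past the line. In AEG-1-C75S the highest value of 11 other settings was 0.31, short of it. Apoa5 leaned the same way, with log2 ratios of 0.16 and 0.13, and with 0.29 in AEG-1-WT after centring. Of the genes tested, 6.77% had a higher ratio than Apoc3 in AEG-1-WT against 8.53% in AEG-1-C75S. For Apoa5 the shares were 11.1% and 13.9%. On the CPM scale Apoa4, Apoc3 and Apoa5 of the chromosome 9 cluster thus leaned periportal in both sections, with different steepness, and only Apoa4 was called.

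Apoa1, the remaining gene of that cluster, had no such slope on the CPM scale. Its levels in AEG-1-WT were 20589, 21479, 21904, 21714 and 20896 CPM from the first to the last group, highest in the middle. In AEG-1-C75S they were 29682, 31443, 31367, 30355 and 28373 CPM. The lowest group of AEG-1-C75S, at 28373 CPM, was still above the highest of AEG-1-WT, at 21904 CPM. The log2 ratio of first over last was -0.02 in AEG-1-WT against 0.07 in AEG-1-C75S. In AEG-1-WT it changed sign under 4 of 11 other settings, so Apoa1 showed no settled direction there. Centred on the median gene, the AEG-1-WT ratio was 0.11. The AEG-1-C75S ratio was positive under all 11 other settings, from 0.04 to 0.17.

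Apoa2, Apoe and Apoh had higher values at each step toward the central vein in both sections, without being called in both. Apoa2 went from 21320 to 27197 CPM in AEG-1-WT and from 26864 to 32726 CPM in AEG-1-C75S, with log2 ratios of first over last of -0.35 (-0.36 to -0.34) and -0.28 (-0.29 to -0.28). The gradient of Apoa2 was past 25% in AEG-1-WT and short of it in AEG-1-C75S. Apoe went from 5982 to 7285 CPM and from 6192 to 7480 CPM, with log2 ratios of -0.28 and -0.27. Apoh went from 2478 to 2798 CPM and from 2554 to 2941 CPM, with log2 ratios of -0.18 and -0.20. Part of these slopes is shared with the median gene: after centring on it, the log2 ratios of Apoa2 were -0.22 and -0.18, those of Apoe -0.15 and -0.17 and those of Apoh -0.04 and -0.10. The HDL pair Apoa1 and Apoa2 thus had different profiles along the lobule in both sections.

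The other 3 genes were nearly flat. Apoc1 had log2 ratios of first over last of -0.13 and -0.17, Apob of -0.05 and -0.13, and Mttp of -0.12 and -0.14. With the median gene as the reference these became -0.0009 and -0.06 for Apoc1, 0.08 and -0.03 for Apob and 0.01 and -0.04 for Mttp, so the direction of Apob and Mttp in AEG-1-WT depended on the scaling. The median log2 ratio over the 10 genes was -0.09 in AEG-1-WT against -0.14 in AEG-1-C75S, close to that of all genes.

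**Figure D3:**
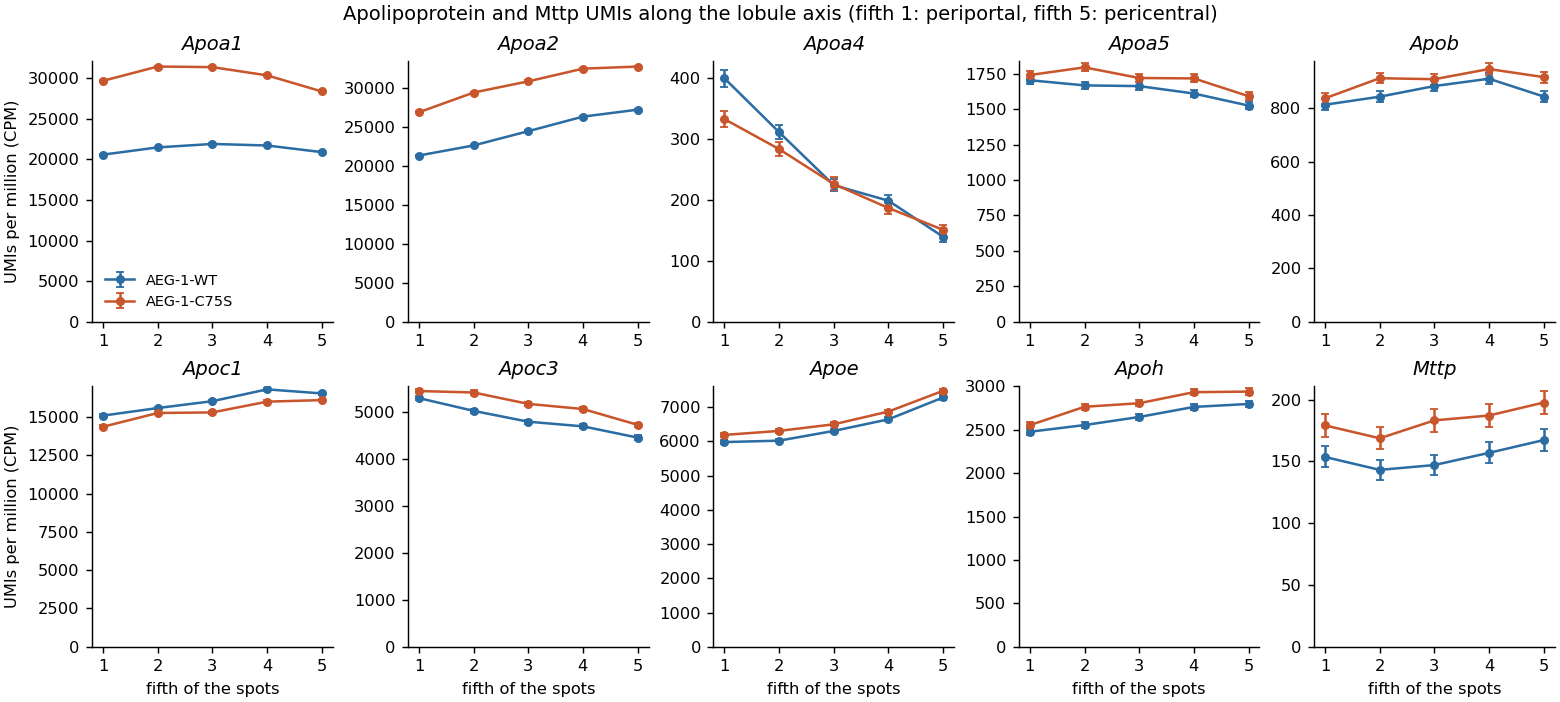
CPM of each gene in 5 equal groups of spots from the most periportal (1) to the most pericentral (5), in AEG-1-WT (blue) and AEG-1-C75S (orange), with 95% Poisson intervals; every vertical axis starts at 0. Apoa4 falls from 400 to 140 CPM in AEG-1-WT, the Apoa1 and Apoa2 curves of the sections run apart over the whole axis, and the curves of Apoe, Apoc1 and Apoh lie close together.

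The difference between the sections was then read within each group of spots, to ask where along the lobule it lay. For Apoa1 the log2 ratio between the sections (AEG-1-C75S over AEG-1-WT) was 0.53, 0.55, 0.52, 0.48 and 0.44 from the first to the last group. Apoa1 was 1 of the 157 genes (2.28% of those tested) that were at least 25% higher in AEG-1-C75S in all 5 groups, and the only one of the 10. For Apoa2 the ratios were 0.33, 0.38, 0.34, 0.30 and 0.27. Both differences were largest in the second group and somewhat larger in the first than in the last. First minus last group came to 0.09 (0.07 to 0.10) for Apoa1 and 0.07 (0.05 to 0.08) for Apoa2, with counting intervals. The lobule ratio of the median gene also rose, from -0.13 in AEG-1-WT to -0.11 in AEG-1-C75S. Groups were ranked within each section, and Cyp2f2 in the last stood at 370 CPM in AEG-1-WT and 569 CPM in AEG-1-C75S. The part of these in the 2 values was not tested. For Mttp the ratios were 0.22, 0.24, 0.32, 0.25 and 0.24, with no slope beyond counting error (first minus last -0.02, interval -0.17 to 0.13).

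Apoa4 behaved otherwise. Its log2 ratio between the sections was -0.26 (-0.34 to -0.19) in the first group, -0.14, 0.01 and -0.09 in the next groups and 0.11 (-0.004 to 0.23) in the last. The lower level in AEG-1-C75S thus lay in the periportal groups, and its gradient was flatter by 0.38 on the log2 scale (first minus last -0.38, interval -0.52 to -0.24). A flatter gradient was not particular to it. Cyp2f2, from which the order was made, was flatter by a similar amount (-0.44), and of the 192 genes called periportal 128 had the smaller ratio in AEG-1-C75S, with medians of 0.70 in AEG-1-WT against 0.59 in AEG-1-C75S. The part of the spot order in the Apoa4 value was not tested.

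**Figure D4:**
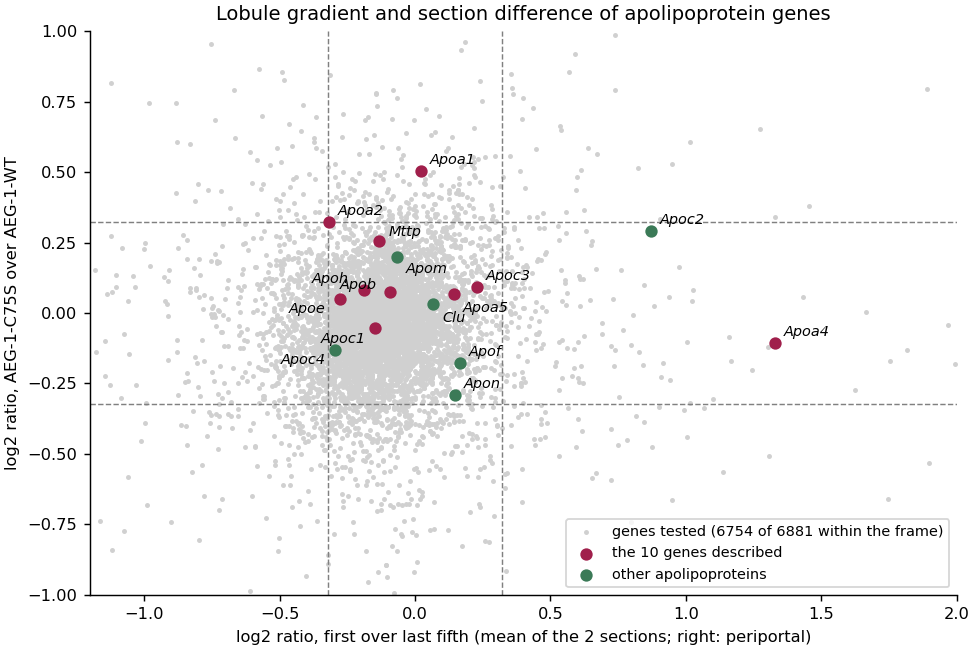
Each tested gene (grey) by its log2 ratio along the lobule (horizontal, mean of both sections, right is periportal) and its log2 ratio between the sections (vertical, AEG-1-C75S over AEG-1-WT), with dashed lines at a 25% excess; red points are the 10 genes and green points other apolipoproteins. Apoa1 is the highest of the red points, with almost no gradient, Apoa4 far to the right with almost no difference between the sections, and Apoc2 is the only other apolipoprotein past the periportal line.

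Spots rich in markers of other cell types were used to see whether levels of the 10 genes moved with those cells. For each type the 5% of spots with the highest marker share (115 in AEG-1-WT, 108 in AEG-1-C75S) were set against all other spots of the section. Apoe and Apoc1 are also made by macrophages. In spots rich in Kupffer cell markers, whose summed level was 3039 CPM against 1331 CPM elsewhere in AEG-1-WT and 3707 against 1741 CPM in AEG-1-C75S, Apoe was nevertheless slightly lower, with log2 ratios of -0.08 (-0.11 to -0.05) and -0.06 (-0.09 to -0.03). Apoc1 had ratios of -0.01 and -0.02 there. Neither transcript was higher in the Kupffer-rich spots than in all other spots of the section. Those spots leaned periportal, where Apoe was lower: 27.0% and 22.2% of them lay in the first group of the lobule axis and 7.83% and 8.33% in the last. The part of that lean in the Apoe value was not tested.

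Spots rich in cholangiocyte markers, a sum that was largely Spp1, were taken to mark portal tracts. Their place in the tissue was not checked, as spot coordinates were not used. Of these spots, 53.0% in AEG-1-WT against 49.1% in AEG-1-C75S fell in the first group of the lobule axis, and 0% against 1.85% in the last. Apoa4 was higher in them, at 440 against 244 CPM in AEG-1-WT, a log2 ratio of 0.85 (0.76 to 0.95), and at 341 against 231 CPM in AEG-1-C75S, a log2 ratio of 0.56 (0.44 to 0.68). The rich spots differed between the sections. Their summed marker level was 1210 CPM in AEG-1-WT and 901 CPM in AEG-1-C75S, and their median depth 17325 and 13400.5 UMIs. What this adds to the gap between 0.85 and 0.56 was not tested. Within the first group alone, a comparison added after the data had been seen, the ratios of Apoa4 were 0.40 (0.27 to 0.53) with 61 rich spots and 0.21 (0.03 to 0.38) with 53 rich spots. Within that group, Apoa4 was thus higher in the cholangiocyte-rich spots than in the other spots. The spots were not matched for their place on the axis inside the group. The part of the lobule gradient in these ratios was therefore not tested. In spots rich in portal fibroblast markers, set against all other spots, the Apoa4 ratio was 0.49 (0.39 to 0.60) for AEG-1-WT. For AEG-1-C75S it was 0.15 (0.01 to 0.29). These fibroblast-rich spots were unlike in the sections. Their summed marker level was 1369 CPM in AEG-1-WT and 456 CPM in AEG-1-C75S, and their median depth 17834 and 11079.5 UMIs. Of them, 36.5% and 26.9% lay in the first group of the axis and 10.4% and 19.4% in the last. The part of this in the 2 ratios was not tested. Apoa2 and Apoh were lower in the cholangiocyte-rich spots than in all other spots, with log2 ratios of -0.31 and -0.18 for Apoa2 and -0.23 and -0.17 for Apoh. Within the first group alone, the same ratios were -0.10 and -0.06 for Apoa2 and -0.11 and -0.14 for Apoh. How much of either set came from the lobule gradient was not tested. Set against all other spots and by sign alone, 7 of the 10 genes were lower and 2, Apoa4 and Apoc3, higher in both sections. Albumin was higher with 0.12 and 0.18. The AEG-1-C75S intervals of Apob (-0.11 to 0.04) and Mttp (-0.33 to 0.01) included 0. No share over all genes is given beside this count, so it says little about the group.

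**Figure D5:**
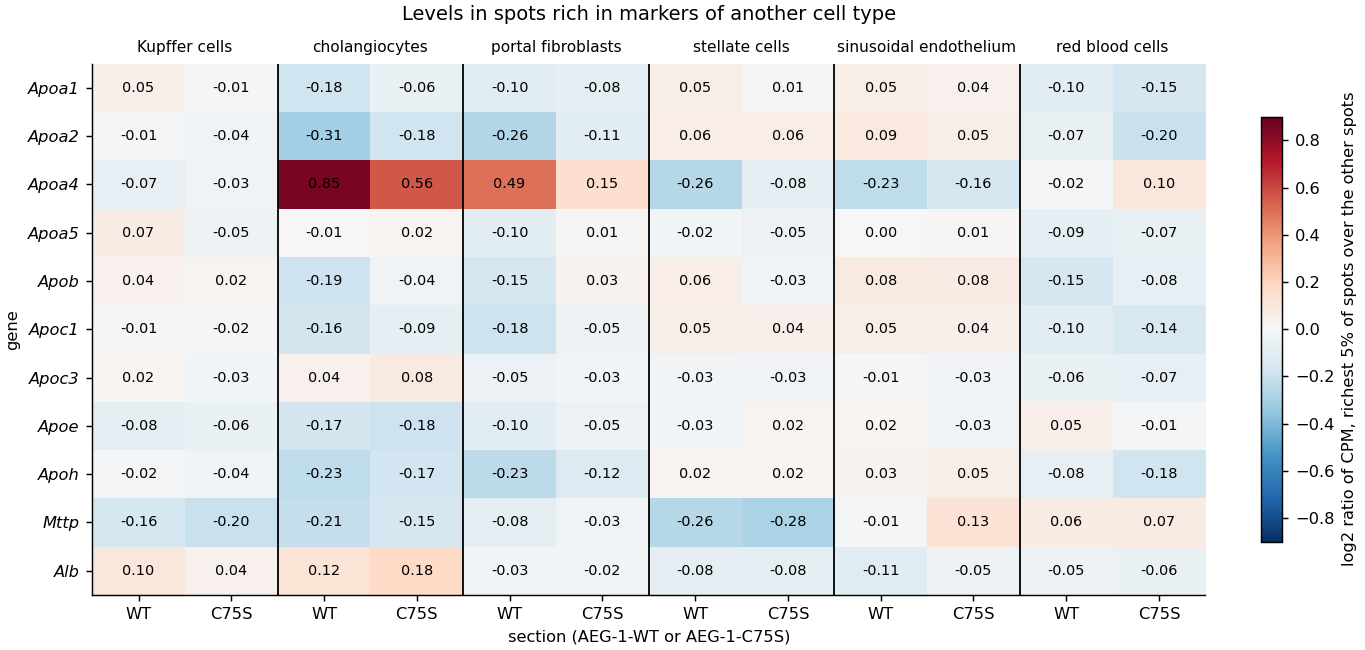
Log2 ratio of CPM in the 5% of spots richest in the markers of a cell type over the other spots, for the 10 genes and Alb (rows) in both sections (columns, by cell type); red is higher and blue lower in the rich spots. Apoa4 in cholangiocyte-rich spots (0.85 and 0.56) is the strongest value, and Apoe and Apoc1 lie near 0 in Kupffer-rich spots.

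Marker sums differed between the sections, and they stand beside the differences given above. The summed level of 8 Kupffer cell markers was 1401 CPM in AEG-1-WT and 1832 CPM in AEG-1-C75S, with 6 of 8 more than 25% higher. The sum of 4 portal fibroblast markers was 140 and 68.7 CPM, all 4 lower, that of 5 stellate cell markers 580 and 723 CPM, with 3 higher and 1, Lrat, lower, and that of 3 red blood cell genes 611 and 404 CPM, all 3 lower. The sum of 5 cholangiocyte markers, largely Spp1, was 129 and 96.6 CPM, and in the first group of the lobule axis it was 262 and 155 CPM. Apoa4 was highest in cholangiocyte-rich spots and lower in that group in AEG-1-C75S, and the part of the marker difference in this was not tested. For Apoa1 the log2 ratio in rich over other spots ran from -0.18 to 0.05 over 6 cell types and both sections. It was lowest in cholangiocyte-rich spots of AEG-1-WT (-0.18) and in red blood cell-rich spots of AEG-1-C75S (-0.15). Without the spots richest in portal markers, Apoa1 was higher in AEG-1-C75S by 0.50 and Apoa2 by 0.31. The part of any of these cells in the Apoa1 and Apoa2 differences was not tested. Mttp had ratios of -0.26 (-0.46 to -0.06) and -0.28 (-0.46 to -0.10) in stellate-rich spots, and of -0.16 and -0.20 in Kupffer-rich spots, where the AEG-1-WT interval, -0.35 to 0.03, included 0. The part of these cells in the Mttp difference was not tested.

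Among spots of the same lobule group, levels of the abundant genes varied little once counting error was taken off. The extra coefficient of variation of Apoa1 was 8.84% in AEG-1-WT against 7.01% in AEG-1-C75S, that of Apoa2 6.63% and 6.59%. Apoa4 varied most, by 26.0% and 20.4%, and that variation lay on top of the gradient between groups. For Mttp the counting error of 63.3% and 61.3% in a spot was too large to tell (extra variation 16.8% and 0%). A UMI of Apoa4 was found in 95.8% of AEG-1-WT against 93.8% of AEG-1-C75S spots, and one of Mttp in 90.4% and 92.7%. With spots thinned to 3000 UMIs (4 shallower AEG-1-WT spots and 3 shallower AEG-1-C75S spots left out), a UMI was found in 50.2% and 48.8% for Apoa4 and 36.7% and 41.8% for Mttp, in the same order as the CPM. Each of the other genes had a UMI in 99.8% to 100% of spots.

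Correlations of measured levels over spots differed between pairs of the genes. Within lobule groups, log2 levels of Apoa2 and Apoc1 correlated over spots with r = 0.46 in both sections, and Apoa1 and Apoa2 with r = 0.35 in AEG-1-WT (2309 spots) and 0.41 in AEG-1-C75S (2163 spots). Apoa1 correlated with albumin at 0.48 and 0.47, Apoa2 at 0.13 and 0.17, while both correlated with transthyretin, Ttr (0.48 and 0.31 for Apoa1, 0.50 and 0.49 for Apoa2). Apoa1 and its cluster neighbour Apoc3 had r = 0.22 and 0.16, and Apoa1 and Apoa4 -0.02 and -0.00. Apoa1 and Apoe had r = 0.00 and -0.19. These are descriptions: the spots share a library, and levels of all genes in a spot share 1 total. Counting error was not taken off these values, and it lowers r most for genes with few UMIs. In AEG-1-WT it was 11.3% for Apoc3 and 49.1% for Apoa4, above their extra variation of 6.07% and 26.0%. A low r of such a gene therefore does not show that it varied apart from the others.

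By Pearson correlation of log2 CPM over 10 points, the 5 groups of both sections, the genes most like Apoa1 among 6882 were Fn1, fibronectin (r = 0.99), and Serp1, an endoplasmic reticulum stress gene (0.99). Those most like Apoa2 were Gm4952 and Crat, carnitine acetyltransferase (both 0.99), and those most like Apoa4 were Sult5a1 and Cryl1 (both 0.99). Wsb1 and Serpinc1, antithrombin, were most like Apoa5 (0.97 and 0.96), and Hsd11b1 and Hsd17b6 most like Apoc3 (both 0.98). Fth1 and Ube2d3 followed Apob (0.98 and 0.96), Sult2a8 and Ubl3 Apoc1 (both 0.98), Tmem205 and Ugt1a1 Apoe (0.99 and 0.98), BC004004 and Fermt2 Apoh (both 0.98), and Sqstm1 and Ip6k2 Mttp (both 0.98). No cluster neighbour was among the 2 genes most like Apoa1, Apoc3, Apoa4 or Apoa5. With only 2 of 6882 genes kept for each, this says little about the cluster. The correlation also leaves out the size of a change: Hsd17b6 had axis ratios of 2.23 and 1.55, against 0.25 and 0.20 for Apoc3. The 10 points come from only 2 libraries, and for Apoa1 all points of AEG-1-C75S lay above all of AEG-1-WT. Its r with Fn1 and Serp1, themselves higher in AEG-1-C75S (log2 ratios 0.28 and 0.42), thus rests largely on the difference between the sections.

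Of 6 other apolipoproteins with enough UMIs, none passed the 25% line between the sections, and their median log2 ratio was -0.05. Beside 4.65% of all genes higher and 8.82% lower, a count of 0 in 6 says little about the group. Apod had 5 and 3 UMIs and was not tested. Apoc2, the activator of lipoprotein lipase, stood at 89.1 CPM in AEG-1-WT and 109 CPM in AEG-1-C75S (log2 ratio 0.29). It was also called periportal, with log2 ratios of first over last of 0.95 and 0.79, while Apoc4, its neighbour in the chromosome 7 cluster, leaned pericentral (-0.31 and -0.28). Apon had the lowest ratio of the 6 (-0.29), at 360 and 294 CPM. Apom, an HDL apolipoprotein that carries sphingosine 1-phosphate, stood at 517 and 593 CPM (0.20).

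Of 15 genes of VLDL assembly and secretion tested, 1 was higher and 2 were lower, with a median of 0.00 on the log2 scale. These counts are near the shares over all genes, 4.65% higher and 8.82% lower. Vmp1, an endoplasmic reticulum scramblase needed for lipoprotein release, was higher in AEG-1-C75S, at 79.8 and 107 CPM (0.42). Dgat2, which makes triglyceride, was lower at 764 and 563 CPM (-0.44), and Ces1d, a lipase that mobilises stored triglyceride, was lower at 321 and 242 CPM (-0.40). Dgat2 and Ces1d were also the list's pericentral genes on the CPM scale, beside 9.56% of all genes. Their axis ratios were -0.43 and -0.33 for Dgat2 and -0.81 and -0.64 for Ces1d.

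Of 8 genes that act on HDL after its secretion, 6 had enough UMIs. None of these passed that line between the sections, beside 4.65% of all genes higher and 8.82% lower, and their log2 ratios ran from 0.001 to 0.14. The 2 below the minimum had ratios of -0.65 (-0.93 to -0.39) for Lipg, endothelial lipase, and 0.39 (0.16 to 0.63) for Abcg1, a cholesterol exporter. Pon1, a paraoxonase carried on HDL, and Pltp, phospholipid transfer protein, were pericentral, beside 9.56% of all genes. Their axis ratios were -1.15 and -1.13 for Pon1 and -0.63 and -0.67 for Pltp.

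Of the genes of lipoprotein uptake, Sdc1, a heparan sulfate proteoglycan that takes up remnants, stood at 326 CPM in AEG-1-WT and 244 CPM in AEG-1-C75S and was past the line (log2 ratio -0.42). It was periportal in both sections, with log2 ratios of first over last of 0.65 and 0.59. Mylip, a ubiquitin ligase, was pericentral on the CPM scale, with axis ratios of -0.45 and -0.62, and stood at 18.6 and 16.4 CPM (-0.18).

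Of 6 genes of lipoprotein lipase and its regulators, 2 were higher and none lower, beside 4.65% and 8.82% of all genes, with a median of 0.25. Lpl, which hydrolyses triglyceride in circulating particles, stood at 25.5 and 49.6 CPM (0.96). It was pericentral on the CPM scale (-0.44 and -1.07). Angptl4, an inhibitor of it, stood at 84.1 and 135 CPM (0.69). Lpl is also a macrophage gene, and the Kupffer marker sum given above was higher in AEG-1-C75S; its part in the Lpl value was not tested.

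Of 12 transcription regulators of these genes, 1 was higher and none lower, near the 4.65% and 8.82% of all genes. Nr0b2, the bile acid-induced repressor SHP, stood at 40.7 CPM in AEG-1-WT and 83.1 CPM in AEG-1-C75S (1.03). The list's median was -0.10. Ppara, Nr1h4 (the bile acid receptor FXR) and Mlxipl were pericentral in both sections on the CPM scale. Their axis ratios were -0.64 and -0.62, -0.47 and -0.43, and -0.32 and -0.41. In all these lists, axis calls stand beside 2.79% of all genes called periportal and 9.56% pericentral. They were not centred on the median gene, which leaned pericentral (-0.13 in AEG-1-WT, -0.11 in AEG-1-C75S). Subtracting those medians would take Dgat2 (-0.33 in AEG-1-C75S) short of the line. The same holds in AEG-1-WT for Mlxipl (-0.32), Mylip (-0.45) and Lpl (-0.44), so none of these would keep its pericentral call.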

How the data were processed

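Per the labels, RNA of 1 AEG-1-WT and 1 AEG-1-C75S liver section was profiled with Visium for formalin-fixed tissue. The authors made the deposited tables with Space Ranger 2.0.1 from mm10, and these hold raw UMI counts of 19465 genes per spot, without normalization; barcodes and gene names are in separate deposited files. The submitters' processing notes also name Seurat 4.3.0. Spots with over 50000 UMIs were left out. For 11 repeated symbols, the row listed first was taken. A set of 1896 spot barcodes occurs in both sections, as slides share their barcodes.

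UMIs were summed over spots and divided by the total of those spots. Ratios carry exact binomial and sums exact Poisson intervals at 95%; UMIs lost before counting are not covered. The spot order was (Cyp2f2 + 1) / (Cyp2e1 + 1). The axis difference between first and last group has a normal counting interval. Computing used pandas 2.3.3, scipy 1.17.1 and numpy 2.4.6 under python 3.11.15, and edgeR 4.0.16 for TMM factors alone. The computation of ratios and intervals was checked on simulated Poisson counts, which hold no variation beyond counting error. Named were all 10 genes, genes of 6 pathway lists past the 25% line, others of those lists where a comparison turned on them, and for each of the 10 the 2 genes most like it. Some genes of the list of lipoprotein uptake, and the counts over that list, are not reported here. The genes, lists, markers and folds were chosen with earlier results of these data known. Of the markers, Tf and Hba-a1 were not used here. Spot coordinates were not used here. The alternatives were other spot filters, spot weights, scalings, thinning to 3000 UMIs, spots matched on depth, portal tract spots left out, minimums of 200 and 5000 UMIs per gene, folds of 1.1 and 1.5, and other divisions of the axis. With 1 section per genotype no test was possible.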

Additional observations from a re-analysis of the deposited data

How the results depend on the processing

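No paired analysis was possible because there was 1 section per genotype. The number of the 10 genes at least 25% higher in AEG-1-C75S was 1 (Apoa1) as reported. It was 2, with Apoa2 added, with no spot filter, with TMM factors, with centring on the median gene, with totals without the 20 most abundant genes and with totals without the 10 genes. It was 3, with Mttp added, at 1.1-fold and 0 at 1.5-fold. Over 10 settings of spots and scaling, the log2 ratio ran from 0.50 to 0.56 for Apoa1, from 0.31 to 0.38 for Apoa2 and from 0.25 to 0.31 for Mttp. Along the lobule, the count of pericentral genes was 0 as reported, 1 (Apoa2) with 10 groups of spots and 3 (Apoa2, Apoe and Apoh) at 1.1-fold, and that of periportal genes was 2 (Apoa4 and Apoc3) at 1.1-fold in place of 1. The log2 ratio of Apoa4 ran from 1.19 to 1.83 in AEG-1-WT and from 0.95 to 1.39 in AEG-1-C75S. In Kupffer-rich spots, 1 of the 10 genes, Apob, was higher in both sections by sign alone. Its log2 ratio was 0.04 (-0.04 to 0.11) for AEG-1-WT. For AEG-1-C75S it was 0.02 (-0.05 to 0.09), and both intervals included 0. With the top 10% of spots the count was 3. No share over all genes is given beside these counts, so they say little about the group.

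Over all genes, 320 were higher and 607 lower. With TMM factors they were 452 and 437, with centring 412 and 465, with totals without the 20 most abundant genes 412 and 466, and after thinning 492 and 815. At 1.1-fold they were 1112 and 2041, at 1.5-fold 95 and 138, with a minimum of 200 UMIs 613 and 1206 of 10389 genes, and with 5000 UMIs 123 and 194 of 2058. Periportal and pericentral genes numbered 192 and 658. With TMM factors they were 305 and 378, with centring 339 and 344, with totals without the 20 most abundant genes 333 and 346, at 1.1-fold 489 and 2095, at 1.5-fold 85 and 190, with 200 UMIs 461 and 985, and with 5000 UMIs 83 and 288. Depth limits Mttp and Apoa4 in single spots, where their medians were 2 to 4 UMIs.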
